A study of Homo sapiens with 22 samples.

Results

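The proteasome genes of K562 cells, a human leukemia line with erythroid features, were examined for where a transposon had landed in and around them. Members were taken by symbol, as every protein-coding gene of GENCODE version 44 on chromosomes 1 to 22 and X whose symbol begins with PSMA, PSMB, PSMC, PSMD, PSME, PSMF or PSMG followed by a digit. This gave 50 of 19970 genes. Of these, 48 encode proteasome subunits, activators, an inhibitor or assembly chaperones. The other 2 are PSMC3IP, a cofactor of meiotic recombination, and PSME3IP1, a protein that binds the activator PSME3, and they are members by their symbols only.

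In Calling Cards, a donor transposon is mobilized by a transposase from a helper plasmid and reports its own position through a transcript that starts inside it. Both groups used here were K562 cells given the same barcoded, puromycin-selectable donor and 5 ug of helper, which was hyPBase, a hyperactive piggyBac transposase, in 10 libraries and hyPBase-centrip in the other 10. How hyPBase-centrip differs from hyPBase is not given in the sources used here. Cells of both groups were kept in puromycin at 2 ug/ml for 11 days, so an insertion could be recorded only where a cell survived selection and the transposon made a polyadenylated transcript. The labels describe 3 transfections pooled in a dish and one RNA isolation for every 3, and do not say which libraries share a dish. The p-values below therefore measure the spread between these libraries, part of which may be technical, and they rest on the same TTAA sites in every library.

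The proteasome is the main protease for ubiquitin-tagged proteins in the cytosol and nucleus. Its 20S core is a barrel of alpha rings, which gate the entry, around beta rings, of which the subunits PSMB5, PSMB6 and PSMB7 carry the cleaving sites. The 19S cap adds a ring of ATPases (PSMC genes), which unfold and thread the substrate, and non-ATPase subunits (most PSMD genes). These bind ubiquitin chains, remove them or hold the cap together, while PSMD5, PSMD9 and PSMD10 are chaperones of the cap. In immune cells PSMB8, PSMB9 and PSMB10 replace the cleaving subunits, PSMB11 does so in the thymus, and PSMA8 serves in the testis. All dividing cells depend on the constitutive subunits, and their genes are active in most tissues. PiggyBac inserts at the tetranucleotide TTAA, and without a fused factor its insertions gather at active promoters and enhancers.

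Each deposited line was counted as an insertion, and the libraries held from 1509672 to 3596762 of them. Levels are given as relative density, the share of a library's insertions that fell in a region over the share of the genome's 19049403 TTAA sites that lie there. A relative density of 1 is thus the genome mean, which over the pooled 52121198 insertions was 2.74 insertions per site. The hyPBase-centrip library with the smallest total, replicate 3, stood apart in PSMD5 and PSMD8. Without it 15 rather than 16 members were higher downstream, and the other counts of members higher or lower in a region or with a helper were the same. Insertions are not transcripts, and nothing below measures expression. As a check of the label by density alone, the gene bodies with 5 kb flanks of 9 erythroid genes lay between 5.92 and 20.9, those of 7 lymphoid genes between 0.454 and 3.60, and CDKN2A, which K562 cells have lost, at 0.00139.

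Member genes were short. Their median length was 16586 bp against 27477 bp over all protein-coding genes, and their median number of TTAA sites was 90 against 125. Together the 50 bodies held 9826 sites and 47544 insertions. PSMB11 has no TTAA site in its body and is left out of every value on bodies, and PSMB10, PSMB6 and PSME1 have fewer than 5. Of the member sites, 68.8% were hit at least once over the 20 libraries, against 54.4% of the sites in all protein-coding gene bodies. In every library 69 sites were hit, or 0.702% of member sites, against 0.516% of the sites in all bodies. Insertions were unevenly spread, since 666 sites, or 6.78% of those in member bodies, held 50% of the insertions. The like share over all genes is not given here.

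Gene bodies of the members were mostly above the genome mean. The pooled relative density was above 1 in 39 of the 49 members with a site (79.6%), against 57.3% of all protein-coding genes, and its median was 1.46 against 1.17. Among the role groups the median was 3.23 for the 4 assembly chaperones PSMG1 to PSMG4, 2.03 for the 8 alpha-ring genes, 1.58 for the 14 PSMD genes, 1.42 for the 7 constitutive beta-ring genes, 1.04 for the 4 activators and 0.969 for the 6 ATPase genes. All of the alpha-ring and constitutive beta-ring genes were above 1, while only 2 of the 6 ATPase genes were. These medians rest on few genes each and carry no test.

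The highest body density belonged to PSMC3IP, the recombination cofactor, which in hyPBase libraries ranged from 6.98 to 11.4 with a median of 8.79 and in hyPBase-centrip libraries from 5.24 to 9.85 with a median of 7.92. PSMG3, a chaperone of alpha-ring assembly, ranged from 2.65 to 8.42 (median 6.76) and from 4.53 to 10.4 (median 7.72), on 9 sites. PSMD5, a chaperone of the 19S base, ranged from 5.15 to 7.19 (median 6.24) and from 5.83 to 7.50 (median 6.16). Every library of both helpers was thus well above the genome mean in these 3 genes, and the helpers overlapped.

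Next came PSMD8, a subunit of the 19S lid, and PSMB5, the chymotrypsin-like subunit that proteasome inhibitors used in myeloma bind. PSMD8 ranged from 1.99 to 6.71 (median 4.25) with hyPBase and from 3.48 to 8.57 (median 5.26) with hyPBase-centrip, and 66.3% of its insertions fell on a single TTAA. PSMB5 ranged from 2.82 to 4.12 (median 3.74) and from 3.07 to 4.59 (median 3.98). Of the other cleaving subunits, PSMB7 (trypsin-like) lay at 1.95 in the pooled libraries, from 1.54 to 2.29 over the 20, and PSMB6 (caspase-like) at 1.37 on only 4 sites with 15 insertions.

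At the other end stood PSMC4, an ATPase of the cap. Its 33 sites took 16 insertions, with a relative density of 0 to 0.475 in hyPBase libraries (median 0.0992) and 0 to 0.737 in hyPBase-centrip libraries (median 0.191), so that no library reached the genome mean. PSMD1, a large scaffold subunit of the cap with 1020 sites, was low with little scatter, from 0.495 to 0.654 (median 0.571) and from 0.502 to 0.707 (median 0.548). PSMD2, the other large scaffold subunit, had medians of 0.554 and 0.550 with a highest value of 1.37. The remaining pair of the lowest 5, PSMB8 and PSME1, are interferon-induced genes, and their 10 and 6 insertions in all leave them with little precision.

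Of the inducible and tissue-restricted genes, PSMB9 had a pooled relative density of 1.22 on 46 sites, near the genome mean. PSMB8 had 0.305 on 12 sites, and PSMB10 had 1.28 on 2 sites with 7 insertions, which is too few to rank. PSMA8, the testis gene, lay at 1.16 with a range of 0.867 to 1.38 over the 20 libraries. The activators PSME2, PSME3 and PSME4 lay at 1.04, 2.35 and 1.03, and the inhibitor PSMF1, which binds the core, at 1.88. PSMB8 and PSMB9 overlap by 544 bp on opposite strands. Larger opposite-strand overlaps are those of PSMB9 with TAP1 (8608 bp), PSME3 with BECN1 (8966 bp) and PSMF1 with TMEM74B (4855 bp). The body densities of PSMB9, PSME3 and PSMF1 thus include sequence shared with those genes.

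**Figure D1:**
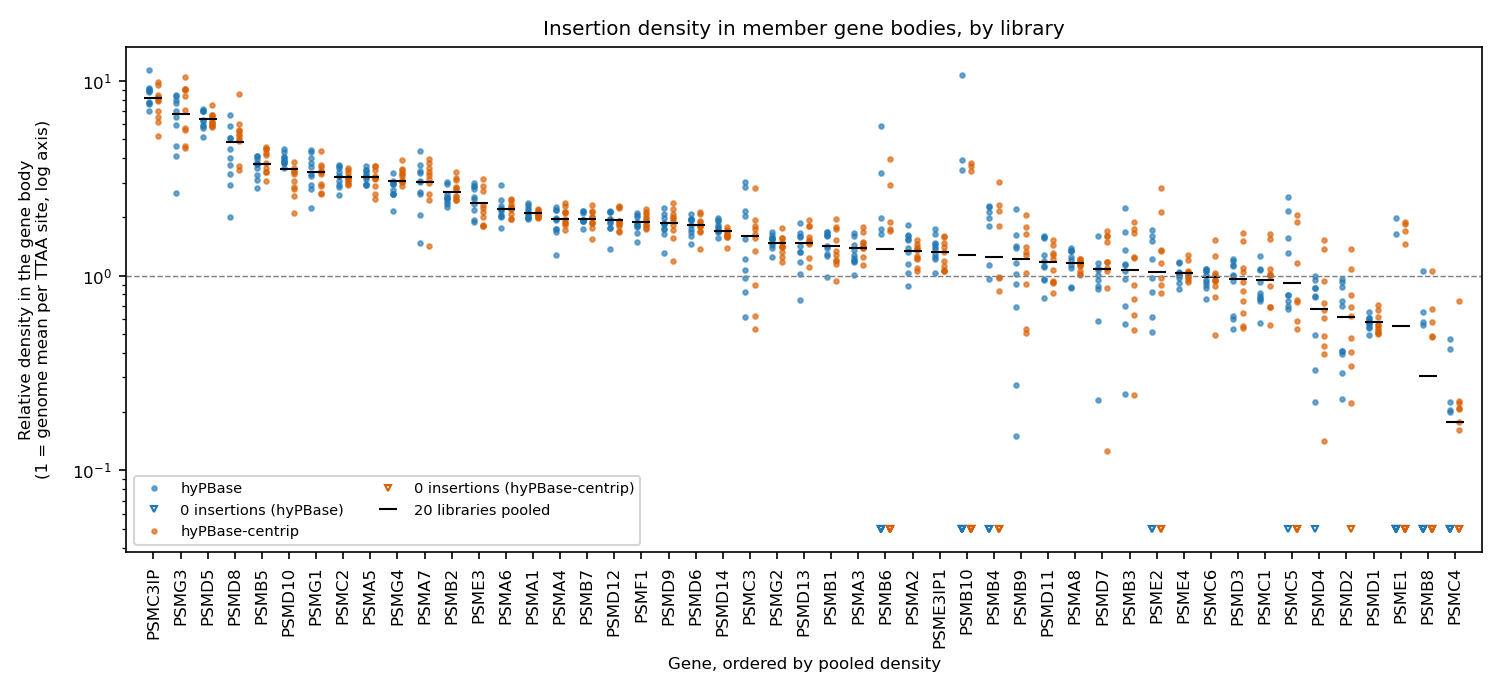
Relative insertion density in the gene bodies of the 49 members with a TTAA site, ordered by the pooled value (black bars); the log axis counts 1 as the genome mean, points are libraries, and open triangles stand for libraries without an insertion. PSMC3IP leads at 8.19 and PSMC4 is lowest at 0.177, and the scatter between libraries widens in genes with few sites.

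Densities outside the body were compared next. The upstream 5 kb had the highest median of any region, 2.90 over the 50 members, against 1.58 over all genes. The downstream 5 kb had a median of 1.58 (all genes 1.11), exons 1.40 (all genes 1.28), introns 1.41 (all genes 1.07) and the local window of 1 Mb around the gene 1.73 (all genes 1.499). Upstream density exceeded body density in 34 of the 49 members with both (69.4%), against 62.1% of all genes. Five-kilobase flanks can lie in a neighbouring gene, and 20 members overlap another protein-coding gene, 15 of them on the opposite strand.

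**Figure D2:**
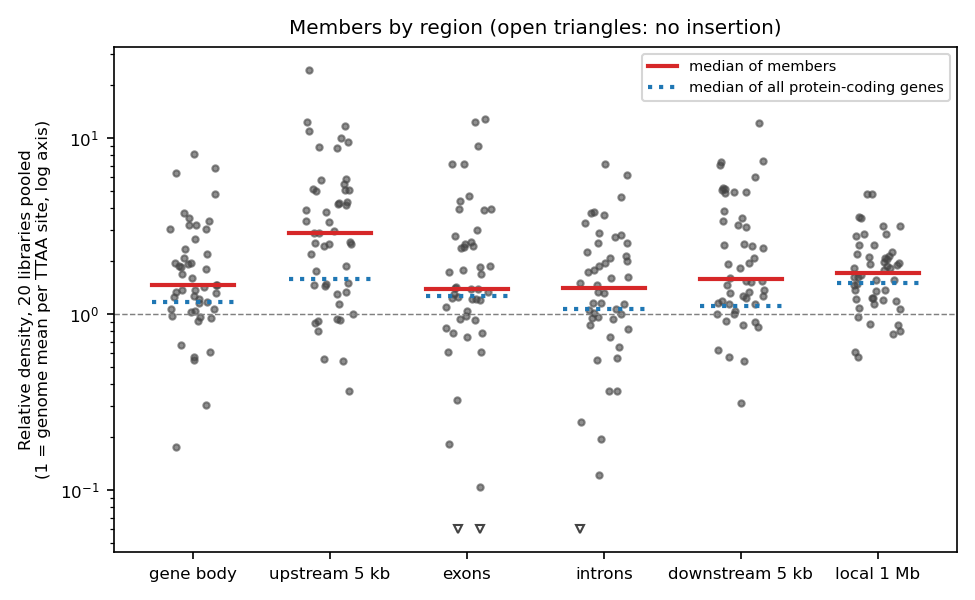
Relative insertion density of each member (points, 20 libraries pooled, log axis) in its body, 5 kb flanks, exons, introns and local 1 Mb, with the medians of members (solid) and of all protein-coding genes (dotted). The medians of members stand highest upstream, at 2.90, and at 1.73 in the local window.

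To ask how far a member follows its neighbourhood, each body was compared with the 1 Mb around it, in the same libraries, by edgeR's quasi-likelihood test with Benjamini-Hochberg adjustment over 18406 genes. Members split evenly. Of the 46 tested, 20 were higher than their window and 20 were lower, and 6 did not pass the threshold of 0.05. Over all genes tested, 34.4% were higher and 54.1% lower, and the median log2 ratio was 0.07 over the members and -0.28 over all genes. The 4 members not tested (PSMB6, PSMB10, PSMB11 and PSME1) have fewer than 5 sites.

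PSMD10, a chaperone of the cap also known as gankyrin, stood farthest above its window. Its window held from 0.564 to 0.676 times the genome mean in each of the 20 libraries, while its body ranged from 3.57 to 4.46 with hyPBase (median 3.93) and from 2.10 to 3.82 with hyPBase-centrip (median 3.20), so that body and window did not overlap. The log2 ratio was 2.53 (standard error 0.073, adjusted p = 2.99e-114 from edgeR). PSMG3 had a log2 ratio of 2.03 (standard error 0.14, adjusted p = 5.27e-37 from edgeR) over a window at 1.63. PSMD6, a lid subunit, had 1.67 (standard error 0.076, adjusted p = 2.45e-67 from edgeR) in the window with the lowest density of any member, 0.574. PSMD5 had 1.57 (standard error 0.033, adjusted p = 1.18e-155 from edgeR). With barcodes collapsed, so that a position and orientation counted once per library, PSMD10 was at 1.59. With a window of 200 kb PSMD6 was at 0.81 and PSMD5 at 0.58, and all of these passed the threshold.

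PSMC4 stood farthest below its window. The window ranged from 1.25 to 1.51 over the libraries, and the log2 ratio was -2.96 (standard error 0.24, adjusted p = 1.52e-28 from edgeR). PSMB8 followed with -1.84 (standard error 0.36, adjusted p = 1.00e-06 from edgeR), and PSMC5, another ATPase, with -1.65 (standard error 0.23, adjusted p = 1.13e-11 from edgeR) on 10 sites, which became -0.85 with barcodes collapsed. PSMD4, a ubiquitin receptor of the cap, had -1.63 (standard error 0.13, adjusted p = 1.77e-30 from edgeR) in a window at 2.06. These 4 genes thus lay in windows above the genome mean, while their own bodies were below it.

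The choice of window and single sites moved this split. With a window of 200 kb, 15 members were higher and 27 lower with a median log2 ratio of -0.33, near the 29.9% higher, 54.3% lower and median of -0.30 of all genes. After removal of the TTAA with most insertions from every gene, an alternative chosen after seeing the data, 17 were higher and 24 lower, beside 27.7% and 62.2% of all genes. With a scaling factor per column (TMM), which centres the ratios nearer the typical gene and raised the median of all genes by 0.18, 25 were higher and 14 lower, beside 40.8% and 47.2% of all genes.

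**Figure D3:**
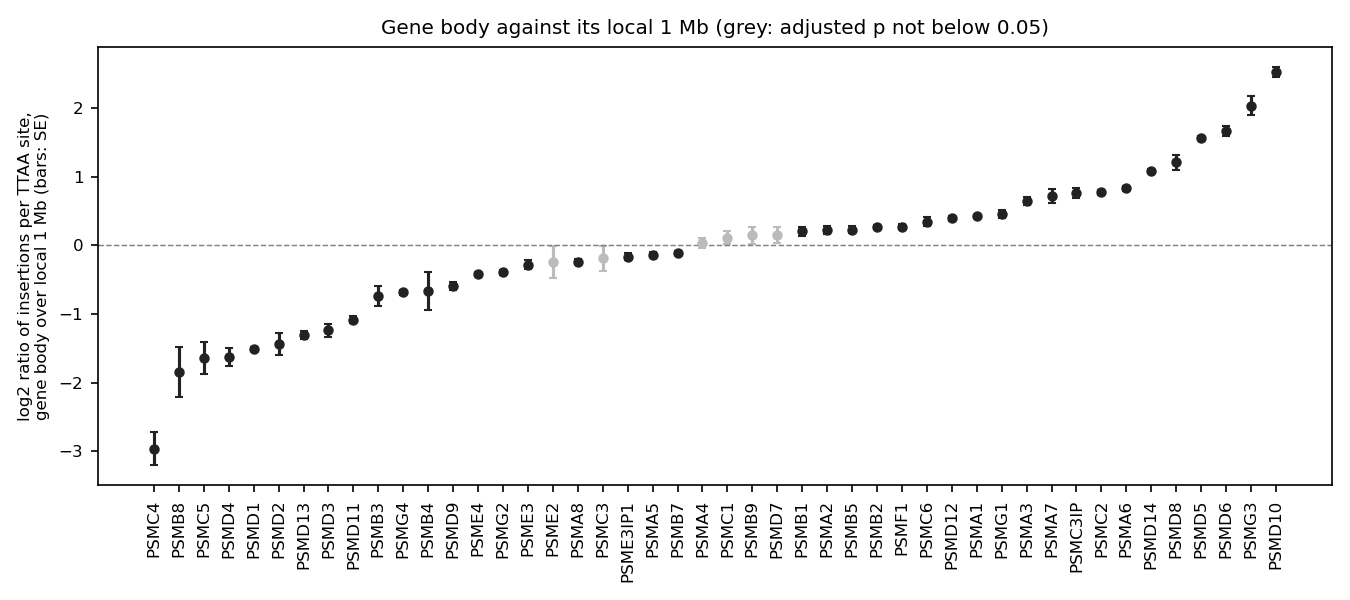
The log2 ratio of insertions per TTAA site in the gene body over the surrounding 1 Mb for the 46 members tested, with standard errors from edgeR; grey points did not pass an adjusted p of 0.05. The ratios run from -2.96 in PSMC4 to 2.53 in PSMD10.

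Members differed from each other about as much after the division by their window as before. Over the 46 members, the standard deviation of log2 relative density was 1.07 in the body, 0.709 in the window and 1.06 for their ratio. Over the 18140 other genes with insertions it was 1.495, 0.961 and 1.26. Across members the body and the window had a Pearson correlation of 0.35 and a Spearman correlation of 0.37 (n = 46), against 0.54 and 0.49 across the other genes. These correlations are descriptions across genes, which share libraries and, for PSMD4 with PSMB4, PSMC3IP with PSME3 and PSMB8 with PSMB9, overlapping windows. In the 33 members with at least 200 insertions, the standard deviation was 0.82 in the body and 0.84 for the ratio. Over the 20 libraries the log2 density of such a member varied with a median standard deviation of 0.20, so that members differed from each other more than libraries did.

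Upstream flanks were denser than bodies in most members tested. Of 41 members, 28 had a higher density upstream, 11 a lower one and 2 did not pass the threshold. Of 14405 genes tested, 56.3% were higher and 25.3% lower. The median log2 ratio of flank over body was 0.89 over these members and 0.58 over all genes. Members were tested where body and flank had at least 5 sites each and together at least 10 insertions in at least 10 libraries.

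PSMC4 combined the emptiest body with a dense flank. Its upstream 5 kb ranged from 6.65 to 13 with hyPBase (median 7.48) and from 6.79 to 12.9 with hyPBase-centrip (median 9.35), where no library had a body above 0.737. The log2 ratio was 5.37 (standard error 0.20, adjusted p = 8.37e-120 from edgeR), a fold of 41.4 against a body that took 16 insertions in all. PSMB3, a noncatalytic beta subunit, had the densest upstream flank of the members, from 20.9 to 28.5 (median 24.7) and from 20.1 to 26.5 (median 24.4), with a log2 ratio of 4.45 (standard error 0.12, adjusted p = 2.14e-181 from edgeR). In PSMB3 375 of the 736 flank insertions were on a single TTAA, and with barcodes collapsed its ratio was 2.79 and that of PSMC4 4.50. In neither gene did any library have a flank as low as its body.

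PSMA3, an alpha-ring gene, followed with a flank of 12.05 to 15.04 (median 12.98) and 10.0 to 14.8 (median 11.4) and a log2 ratio of 3.16 (standard error 0.066, adjusted p = 6.65e-253 from edgeR), or 2.37 with barcodes collapsed. PSMD3, a lid subunit, had 2.57 (standard error 0.13, adjusted p = 2.74e-72 from edgeR). Of the cleaving subunits, PSMB5 had a flank at 11.7 and a log2 ratio of 1.64 (standard error 0.079, adjusted p = 1.74e-78 from edgeR), and PSMB7 a flank at 2.90 and a log2 ratio of 0.56 (standard error 0.14, adjusted p = 1.09e-04 from edgeR).

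In PSMD10 the order was the opposite, with a log2 ratio of -1.95 (standard error 0.14, adjusted p = 9.73e-40 from edgeR). Its flank ranged from 0.215 to 1.80 over the 20 libraries and did not overlap its body. PSMA6, an alpha-ring gene, had -1.21 (standard error 0.13, adjusted p = 3.40e-18 from edgeR), PSMD11, a lid subunit, -1.10 (standard error 0.22, adjusted p = 1.80e-06 from edgeR) and PSMC2, an ATPase, -1.09 (standard error 0.099, adjusted p = 9.45e-26 from edgeR). The value of PSMD11 depended on the length of the flank, with -0.17 at 2 kb (adjusted p = 0.642 from edgeR) and 0.30 at 10 kb (adjusted p = 6.05e-03 from edgeR). With barcodes collapsed, PSMD10 was at -0.88, PSMA6 at -0.52 and PSMC2 at -0.59, all still past the threshold. The flank of PSMD11 held few insertions, from 0 to 4 per library. Flanks begin at the outermost GENCODE start of a gene, which for PSMA6 (35278633) and PSMC2 (103328570) lies before their RefSeq promoter windows, so those promoters count as body here. In 9 members, PSMA1 among them, a RefSeq start lies more than 1 kb inside the body. With TMM factors per column, which shifted the median of all genes by -0.74, 19 members were higher upstream and 13 lower, against 28 and 11, beside 37.9% higher and 45.4% lower of all genes.

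Around the annotated start the members formed a sharper peak than genes at large. In the 500 bp before the start their summed relative density was 12.7 ± 1.28 (SD over 20 libraries), against 6.44 ± 0.28 over all protein-coding genes, and in the first 500 bp of the body 8.56 ± 1.17 against 5.50 ± 0.29. No gene made the peak alone, since the leading member held 21.0% of the insertions in the bin before the start (PSMB5) and 19.98% in the bin after it (PSMD8). From 2000 to 2499 bp after the start the members were at 2.06 ± 0.29, below the 3.02 ± 0.07 of all genes. In the next 2 bins they were at 2.69 and 2.66, beside 2.68 and 2.48. The first 3 of these bins hold 78, 36 and 142 TTAA sites of the members, and the differences from all genes are descriptions without a test.

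**Figure D4:**
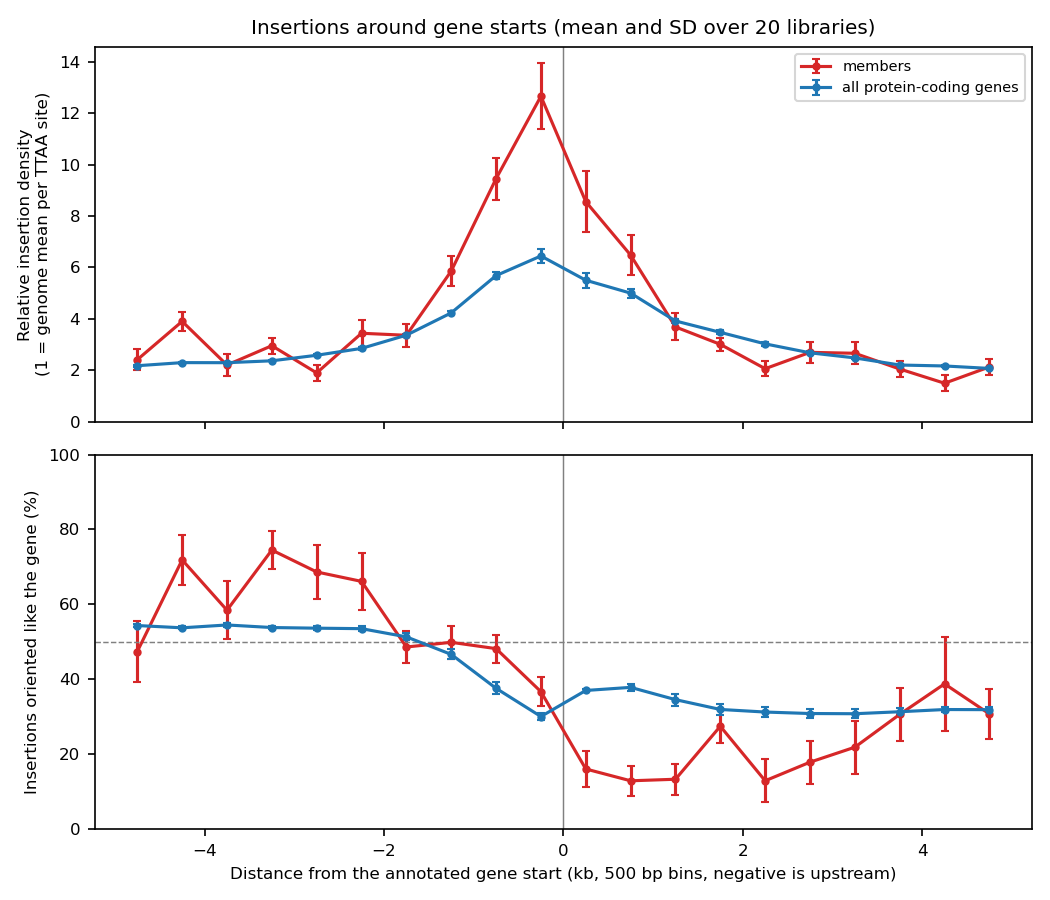
Relative insertion density (top) and the percent of insertions oriented like the gene (bottom) in 500 bp bins around gene starts, as means with SD over 20 libraries, for the members and for all protein-coding genes. The members peak at 12.7 just before the start, and their same-strand percent falls to 12.9 from 500 to 999 bp into the body. Every position in a bin counts, also those inside other genes.

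The RefSeq promoter table (GRCh38.p14, 250 bases before to 50 after a start) matched 44 of the 50 members, with 55 windows. A TTAA was present in 16 of these windows (29.1%), against 46.1% of all 35116 windows in the table. The 21 TTAA sites in member windows took 1163 insertions, or 55.4 per site, which is 20.2 times the genome mean. The density over all windows is not given here, so this value has only the genome mean beside it. Around the GENCODE starts of all protein-coding genes the relative density was 6.44 in the 500 bp before and 5.50 in the 500 bp after. The mean is carried by few sites, since 3 of them held 728 of these insertions, the median site held 19, and 6 sites held 3 or fewer. The windows of PSMB5, PSMC2 and PSMD8 are shown because they held the most insertions of all member windows, 370, 254 and 167. Capitals mark each TTAA, and the sequences read in the direction of the gene.
PSMB5 promoter, chr14:23035171-23035470, minus strand: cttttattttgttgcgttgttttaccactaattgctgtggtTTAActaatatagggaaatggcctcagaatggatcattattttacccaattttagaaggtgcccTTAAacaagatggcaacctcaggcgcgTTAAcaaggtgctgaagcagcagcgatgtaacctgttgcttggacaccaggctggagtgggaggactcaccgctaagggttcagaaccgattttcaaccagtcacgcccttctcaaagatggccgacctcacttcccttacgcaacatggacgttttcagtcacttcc
PSMD8 promoter, chr19:38374321-38374620, plus strand: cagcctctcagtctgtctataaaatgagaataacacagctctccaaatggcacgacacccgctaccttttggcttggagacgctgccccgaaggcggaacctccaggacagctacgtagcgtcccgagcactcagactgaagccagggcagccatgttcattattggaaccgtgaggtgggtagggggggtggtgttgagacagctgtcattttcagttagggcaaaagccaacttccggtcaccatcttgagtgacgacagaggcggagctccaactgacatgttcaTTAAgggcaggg
PSMC2 promoter, chr7:103347393-103347692, plus strand: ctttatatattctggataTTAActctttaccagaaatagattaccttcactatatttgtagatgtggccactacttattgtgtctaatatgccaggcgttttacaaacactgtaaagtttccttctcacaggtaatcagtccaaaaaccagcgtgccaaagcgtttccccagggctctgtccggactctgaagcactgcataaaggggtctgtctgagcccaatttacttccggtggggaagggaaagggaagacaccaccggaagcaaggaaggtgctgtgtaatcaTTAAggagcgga

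In the PSMB5 window, the TTAA at base 106, counted from 1 at the 5′ end, held 325 insertions, from 7 to 23 per library, and the TTAA sites at bases 42 and 133 held 12 and 33. Sites within 100 bases of each other thus differed by an order of magnitude. The single TTAA of the PSMD8 window, at base 289 and inside an exon, held 167 insertions, from 2 to 9 per hyPBase library and from 7 to 13 per hyPBase-centrip library. In the PSMC2 window the sites at bases 19 and 289 held 18 and 236. The TTAA in the PSMC4 window held 2 insertions, so the insertions of its dense flank lie outside this window.

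Motifs were counted in the same windows on both strands. TGACNNNGC, the core of the antioxidant response element that NFE2L1 and its relatives bind, was in 15 of the 55 member windows (27.3%) and in 13.3% of all windows. CCGGAAG, an ETS-type motif, was in 18 (32.7%) against 10.3%, and CCAAT in 24 (43.6%) against 34.6%. A match of letters is no site of binding, and several windows belong to the same gene.

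Single TTAA sites of the member bodies and flanks held up to 375 insertions, where the genome mean is 2.74. The 7 sites with most insertions, the last 2 of them tied, are shown with 13 bases on each side on the plus strand of hg38, the TTAA in capitals, because they carry the largest counts at single positions.
PSMB3 upstream, chr17:38751001-38751030: ggatcagatccctTTAAaaatggtgacgag
PSMB5 upstream, chr14:23035349-23035378: gttgccatcttgtTTAAgggcaccttctaa
PSMA1 intron, chr11:14537455-14537484: tagatcatatcttTTAAagagggtggtttc
PSMA6 intron, chr14:35287484-35287513: tcttatcttgcctTTAAacaccatgtgatt
PSMA3 upstream, chr14:58244059-58244088: accctattttagtTTAAatatcactcactc
PSMA5 downstream, chr1:109395520-109395549: caaaatagctattTTAAataaggtcactga
PSMC2 exon, chr7:103347668-103347697: tgctgtgtaatcaTTAAggagcggaggctt

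All 7 sites were hit in each of the 20 libraries. The PSMB3 site lies 1727 bp before the gene and held 375 insertions, from 14 to 26 per hyPBase library (median 18) and from 9 to 24 per hyPBase-centrip library (median 20). The PSMB5 site, 135 bp before the gene, held 325, and the PSMA3 site, 771 bp before the gene and inside ARMH4, 256. The sites inside introns of PSMA1 and PSMA6 held 264 and 256. Both lie upstream of the RefSeq promoter windows of their genes, that of PSMA1 at 106164 bp from its GENCODE start. The PSMA5 site, downstream of the gene and inside SORT1, held 236. The PSMC2 site is the one at base 289 of its promoter window and held 236 as well. Over the 9826 sites in member bodies, those with a T just before and an A just after the TTAA took 7.48 insertions on average (1901 sites), those with 1 of them 4.79 (4439 sites) and those with neither 3.46 (3486 sites). The sites of a class share genes and libraries, so this is a description.

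Exons and introns were compared within genes, on 31 members with enough sites and insertions in both. Exons were higher in 17 and lower in 7 of them, and 7 did not pass the threshold. Of 11525 genes tested, 46.6% were higher and 25.4% lower in exons. The median log2 ratio was 0.33 over these members and 0.26 over all genes.

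PSMD8 had the largest ratio. Its exons ranged from 5.41 to 18.2 with hyPBase (median 11.5) and from 9.44 to 23.3 with hyPBase-centrip (median 13.9), while its introns took between 0 and 2 insertions per library. The log2 ratio of 5.89 (standard error 0.29, adjusted p = 5.47e-91 from edgeR) sets 248 insertions on 7 exon sites against 4 on 12 intron sites, and 167 of the 248 were on the promoter-proximal TTAA printed above. PSMA3, PSMA5 and PSMA4, all of the alpha ring, followed. Their log2 ratios were 2.19 (standard error 0.12, adjusted p = 1.99e-74 from edgeR), 2.04 (standard error 0.069, adjusted p = 2.30e-187 from edgeR) and 1.73 (standard error 0.16, adjusted p = 9.08e-27 from edgeR). With the exons of the canonical transcript alone, PSMA3 was at 0.84 and PSMA4 at 0.41 (adjusted p = 6.02e-03 and 0.0118 from edgeR), and with barcodes collapsed PSMA3 was at 1.55 and PSMA5 at 1.47. In PSMA5 the exons ranged from 5.44 to 8.79 and the introns from 0.753 to 2.21, without overlap.

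PSMD10 had the lowest ratio, -2.55 (standard error 0.18, adjusted p = 6.65e-46 from edgeR), with introns between 2.98 and 6.31 and exons between 0 and 2.33. Its density therefore sat in its introns, and with barcodes collapsed the ratio was -1.43. PSMA7, an alpha-ring gene, had -1.56 (standard error 0.25, adjusted p = 1.05e-09 from edgeR), PSME3, the nuclear activator, -1.22 (standard error 0.24, adjusted p = 1.29e-06 from edgeR) and PSMD9, a chaperone of the cap, -1.19 (standard error 0.16, adjusted p = 1.08e-12 from edgeR). With canonical exons PSMD9 was at 0.084 (adjusted p = 0.762 from edgeR), and 15 of 24 members were higher and 3 lower, beside 45.9% and 23.03% of all genes. With TMM factors per column, which lowered the median of all genes by 0.34 on the log2 scale, 9 members were higher in exons and 11 lower, beside 32.6% and 38.2% of all genes. These factors recentre the ratios of all genes, so the counts are read relative to the typical gene.

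Downstream flanks were split against bodies. Of 40 members tested, 16 were higher downstream, 16 were lower and 8 did not pass the threshold, beside 36.9% higher and 38.1% lower of 13917 genes. This split depended on how insertions were counted, since with barcodes collapsed 16 of 34 members were higher and 7 lower, beside 39.0% and 28.2% of all genes. The highest log2 ratio was that of PSME2, which pairs with PSME1 in an interferon-induced activator, at 2.78 (standard error 0.20, adjusted p = 8.37e-42 from edgeR). Its downstream flank ranged from 4.24 to 15.3 with hyPBase and from 2.32 to 9.14 with hyPBase-centrip, and its body from 0 to 2.82. The midpoints of PSME1 and PSME2 lie 7901 bp apart, and the downstream flank of PSME1 was at 7.33.

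PSMC6, an ATPase, had 2.61 (standard error 0.094, adjusted p = 1.91e-166 from edgeR), PSMD11 2.14 (standard error 0.19, adjusted p = 5.08e-29 from edgeR) and PSMA2 1.95 (standard error 0.090, adjusted p = 3.31e-102 from edgeR). With a flank of 2 kb, PSMA2 was at 0.01 (adjusted p = 0.952 from edgeR), and with barcodes collapsed PSMC6 was at 1.74, PSMD11 at 1.35 and PSMA2 at 1.16. The lowest ratios were those of PSMG3 with -1.81, PSMD10 with -1.73, PSMD8 with -1.70 and PSMG1 with -1.57, with adjusted p of at most 3.28e-11 from edgeR. With a flank of 2 kb PSMG1 was at -0.45 (adjusted p = 0.0191 from edgeR), and with barcodes collapsed PSMD10 was at -0.66. All 4 assembly chaperones PSMG1 to PSMG4 were lower downstream, beside 38.1% of all genes, and this group of 4 was not tested as a set. PSMG4 was the weakest of them, at -0.30 (standard error 0.12, adjusted p = 0.0183 from edgeR). With barcodes collapsed, 7 of 34 members were lower downstream, beside 28.2% of all genes. PSMD10 was therefore denser in its body than in its window and in either flank.

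Insertions in member bodies were mostly oriented against the gene. In positions not covered by a gene of the other strand, 23.8% ± 0.933 of insertions in member bodies pointed along the gene in hyPBase libraries and 24.7% ± 1.25 in hyPBase-centrip libraries (mean ± SD, 10 libraries each). Over all protein-coding genes this same-strand share was 32.5% ± 0.429 and 33.8% ± 0.274. All 30 members tested had fewer insertions on the same strand, beside 85.2% lower and 5.35% higher of 12305 genes, and none was higher. The median log2 ratio was -2.12 over these members and -1.12 over all genes. In 27 of the 30, every one of the 20 libraries had fewer same-strand insertions. The like share over the 12305 genes is not given here.

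PSMD10 was again at the end of the range. Its same-strand share was 0 to 5.56% in hyPBase libraries (median 2.90%) and 0 to 10.0% in hyPBase-centrip libraries (median 4.67%), with 26 of 656 insertions in all. The log2 ratio was -4.49 (standard error 0.17, adjusted p = 2.10e-139 from edgeR), and -3.20 with barcodes collapsed. PSMD6 had -3.88 (standard error 0.18, adjusted p = 1.28e-98 from edgeR) and a pooled share of 5.98%, PSMB2 had -3.76 (standard error 0.085) and 6.77%, and PSMD13, a lid subunit, had -3.28 (standard error 0.20, adjusted p = 4.79e-61 from edgeR) and 8.95%. With barcodes collapsed PSMB2 was at -3.11. In these 3 genes no library exceeded 25%.

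The weakest differences were in PSMG4, PSMA1, PSMB5 and PSMA8. PSMG4, a chaperone of alpha-ring assembly, ranged from 29.3% to 50.0% with hyPBase (median 43.0%) and from 33.7% to 57.4% with hyPBase-centrip (median 43.7%), and 15 of 20 libraries had fewer same-strand insertions. Its log2 ratio was -0.39 (standard error 0.079, adjusted p = 1.61e-06 from edgeR). PSMA1 had -0.50 (standard error 0.039, adjusted p = 9.23e-36 from edgeR), PSMB5 -0.70 (standard error 0.099, adjusted p = 2.77e-12 from edgeR) and PSMA8 -0.82 (standard error 0.076, adjusted p = 2.64e-26 from edgeR). When the scale was set by TMM, which moved the median of all genes by 1.10, these same 4 members had more same-strand insertions than the typical gene (log2 ratios of 0.72, 0.61, 0.41 and 0.29) and 22 members had fewer, beside 42.1% and 43.3% of all genes.

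The other 20 members were not tested. PSMB11 has no site and the body of PSMA3 lies wholly within ARMH4 on the other strand. The remaining 18 held from 1 to 166 usable insertions each, and 8 of them had a same-strand share above 50%. Without the filter on insertions, 44 members were tested, with 38 lower and 3 higher, beside 72.2% lower and 7.96% higher of the 17574 genes tested in that way. The 3 higher ones were PSMB4, a noncatalytic beta subunit, with 21 of 24 insertions on the same strand, PSMB9 with 42 of 56 and PSME2 with 31 of 37. The absence of higher members among the 30 therefore holds for the genes with more insertions only.

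**Figure D5:**
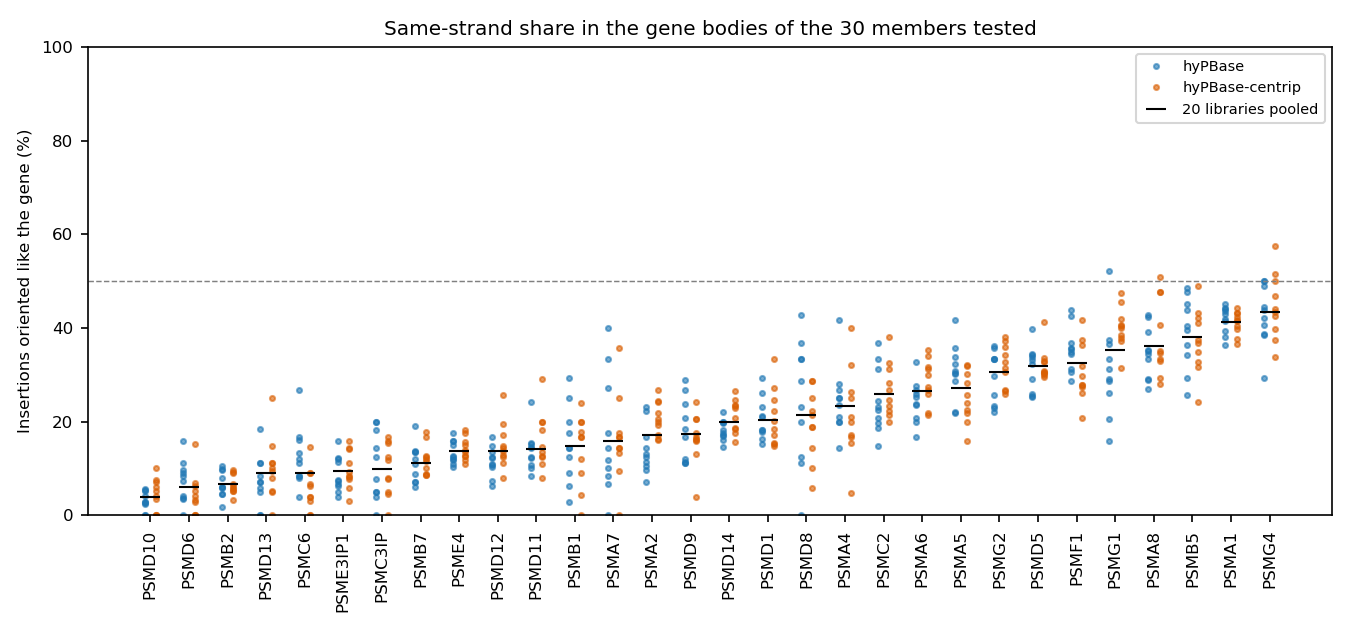
Percent of insertions oriented like the gene in the bodies of the 30 members tested, ordered by the pooled value (black bars); points are libraries of each helper and the dashed line is 50%. Pooled shares run from 3.96% in PSMD10 to 43.5% in PSMG4, and all lie under the line.

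Orientation also changed with the distance from the start. The bins took every position at a given distance, also those inside a gene of the other strand, which the body shares above leave out. Bin shares and body shares are thus not comparable. In the first 500 bp of member bodies 16.0% ± 4.71 of insertions pointed along the gene (SD over 20 libraries). In the next 500 bp the share was 12.9% ± 4.04, against 37.0% and 37.8% over all genes. In the 500 bp before the start the share was 36.7% ± 3.89, against 30.1% over all genes. Farther upstream it varied from bin to bin. From -3500 to -3001 bp it was 74.5% ± 5.11, and PSMA1, taken from its outermost GENCODE start, held 30.5% of the insertions. From -5000 to -4501 bp it was 47.4%. Over all genes these bins had 53.8% and 54.3%. Reads behind an insertion had medians of 3.49 per same-strand and 3.67 per opposite insertion in hyPBase libraries and 2.59 and 2.99 in hyPBase-centrip libraries. The opposite-strand value was the larger in 9 and 10 of the 10 libraries, and the part of read depth in the shares was not tested.

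Few members passed a test between the helpers. Gene bodies were compared in the 33 members that had 10 or more insertions in 10 or more libraries. By edgeR's quasi-likelihood test, 1 was higher with hyPBase-centrip and 0 were lower, beside 0.816% higher and 1.55% lower of 12865 genes. At an unadjusted p below 0.05, 1 was higher and 2 lower by edgeR, where 6.90% of all genes were higher and 8.24% lower. DESeq2 gave the same counts of members, beside 4.97% higher and 6.27% lower of all genes, and called 0 after adjustment, beside 0.428% higher and 1.06% lower. If the libraries of each helper were made separately, which the labels do not say, helper and preparation cannot be told apart. The gene was PSMG4, at 2.14 to 3.38 (median 2.85) with hyPBase and 2.88 to 3.92 (median 3.29) with hyPBase-centrip, with overlapping groups. On the log2 scale the difference was 0.22 ± 0.065 (SE), at an edgeR adjusted p of 0.0426. The call was lost with DESeq2 (adjusted p = 0.0638), with barcodes collapsed, with insertions of at least 2 reads, with the 5 kb flanks added and without positions of other genes. It was also lost without any one of hyPBase replicates 1, 2, 4, 6 or 7 or hyPBase-centrip replicates 2, 5, 7 or 8. Over all 29 alternatives, of which 15 kept the call, the adjusted p ranged from 0.0113 to 0.606.

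Next by p-value were PSMD14, the deubiquitinase of the lid, at -0.14 ± 0.043 (log2, SE) with an edgeR adjusted p of 0.0519, and PSMD10, at -0.33 ± 0.11 with 0.0850. PSMD10 ranged from 3.57 to 4.46 with hyPBase and from 2.10 to 3.82 with hyPBase-centrip. Neither passed the threshold. In edgeR with library size as a term PSMD14 did (adjusted p = 0.0145), as it did without any one of hyPBase replicates 5, 7, 8 or 9 or hyPBase-centrip replicates 5 or 6, and with 5 kb flanks added PSMD10 did (adjusted p = 0.0385), both lower with hyPBase-centrip.

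No tested member passed edgeR's test of an interaction between region and helper. The counts were 0 of 46 for body against window (1.03% of all genes), 0 of 31 for exons against introns (0.00868%), 0 of 41 upstream (0.153%), 0 of 40 downstream (0.0144%) and 0 of 30 for orientation (2.23%). At an unadjusted p below 0.05 there were 4, 2, 1, 2 and 6 members in the same order, beside 11.4%, 7.15%, 8.88%, 6.70% and 14.0% of all genes tested. No other tool was run on the interaction.

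Other genes of the pathway were described in the same way. Of 24 such genes, 19 lay above the genome mean, with a median of 1.85. The lowest was UBA1, the main ubiquitin-activating enzyme, at 0.332. Against the local window 11 of 24 were higher and 9 lower, and upstream 17 of 20 were higher and 2 lower, beside 34.4% and 54.1% of all genes against the window and 56.3% and 25.3% upstream. Exons were higher in 9 of 17 and lower in 3, and downstream flanks higher in 7 of 21 and lower in 7, where all genes had 46.6% and 25.4% in exons and 36.9% and 38.1% downstream. Of 18 tested for orientation, 16 had fewer same-strand insertions and none had more, beside 85.2% and 5.35% of all genes, with a median log2 ratio of -2.13, close to that of the members. RPS27A, which encodes a fusion of ubiquitin with a ribosomal protein, did not pass, with 52.5% on the same strand and an edgeR adjusted p of 0.609. Between helpers, edgeR and DESeq2 each called 0 of 18, with 5 (edgeR) and 3 (DESeq2) at an unadjusted p below 0.05, beside 15.1% and 11.2% of all genes. POMP, the chaperone that completes the core, had 6.82% on the same strand and an upstream log2 ratio of 2.88 (standard error 0.089). NFE2L1, the factor that raises proteasome genes when the proteasome is inhibited, had 11.4% and 2.18 (standard error 0.10).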

How the data were processed

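Insertions came from 20 K562 libraries, 10 per helper. The qbed tables that the authors deposited give 1 insertion a line on hg38, with its count of reads, orientation and barcode, without normalization. The submitters' processing notes name Trimmomatic, BWA and SAMtools, with no versions given in the sources used here. Every recorded position on chromosomes 1 to 22 and X lay on a TTAA, so a filter by the authors on TTAA cannot be told apart from the specificity of the transposase, and reads that were dropped are not seen.

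The hg38 sequence was searched for TTAA, and GENCODE version 44 gave genes, starts and exons (union over transcripts). The 2 libraries deposited under a name with ClarkMut, whose labels conflict on the helper, entered no comparison. Members, gene lists and tests were chosen with earlier results of these data known. Pairs of regions were compared with edgeR 4.0.16 (R 4.3.3) on insertion counts, with 2 columns per library, the library as a block, offsets for library total and TTAA sites, a helper interaction and Benjamini-Hochberg adjustment over all protein-coding genes tested. A gene needed 5 sites in each region and 10 insertions over both in 10 libraries. Helpers were compared with TMM and the same test, and with DESeq2 1.42.0 as an alternative. Tested on simulated counts, the region fit (18407 genes) recovered 88% of genes changed 1.5-fold and 96% at 2-fold, and the helper fit (12848 genes) 80.6% and 100%. False calls were at 2.65% and 6.81%. The simulated counts were independent between libraries, with the same small dispersion in every gene and no difference outside the changed genes. Real libraries may share dishes and single sites can dominate a gene, so these rates describe the simulation only.

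Named were the 5 highest and 5 lowest body densities, the 4 highest and 4 lowest ratios of each contrast, members past the helper threshold, genes set by role, and the 6 TTAA sites with most insertions, ties included. PSMD14 and PSMD10 in the helper comparison, pathway genes by value and the promoter windows printed, were named after their values were seen. Alternatives covered reads per insertion, barcodes, overlapping genes, windows, flank lengths, transcripts, scaling, filters and libraries. Summaries used Python 3.11.15, pandas 2.3.3 and scipy 1.17.1. The value of 1 pathway gene is not reported here.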

Additional observations from a re-analysis of the deposited data

Results flagged for a closer look

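A library far from the other 9 of its helper was found in 6 of the 52 sets of values examined, where chance gives about 1 in 20, or 2.6. With hyPBase, replicate 2 stood at 11.4 in the body of PSMC3IP, with the next library at 9.17, and replicate 8 at 10.7 in PSMB10, with the next at 3.92 on 2 TTAA sites. With hyPBase-centrip, replicate 3 stood at 7.50 in PSMD5 (next 6.70) and at 8.57 in PSMD8 (next 5.98), replicate 8 at 0.737 in PSMC4 (next 0.228), and replicate 6 at 4.61 in the summed upstream flanks of all members (next 4.43). All 6 are high values. Among hyPBase-centrip libraries, replicate 3 has the lowest total, 1638175, and the part of depth in the values was not tested.

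The 2 libraries deposited under a name with ClarkMut, whose labels name conflicting helpers, entered no comparison. Whether they share a helper with either group is not known here. They held insertions in member bodies at a summed relative density of 1.94 and 2.09, each above the 1.71 to 1.84 of the 20 libraries. They were listed because they lie outside the comparisons.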

How the results depend on the processing

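Of the counts and medians recomputed under alternatives, 189 stayed near the reported value and 45 moved, and of the named members' ratios 346 kept direction and call, 16 lost and 8 gained the call and 6 reversed. Barcodes collapsed gave medians of 1.75 in bodies, 1.70 in exons and 1.57 in introns, a spread of 0.815 for the log2 ratio of body over window, 7 of 34 members lower downstream (28.2% of all genes) and 21 genes called between helpers. Without positions of other genes the intron median was 1.24, the upstream median 3.82, the spread 1.29, and 16 and 7 of 25 members were higher and lower upstream (57.3% and 23.3% of all genes) and 10 and 9 of 25 downstream (37.3% and 35.2%). With 2 kb flanks the upstream median was 3.70 and 10 of 33 members were higher and 15 lower downstream (30.7% and 35.7% of all genes), and with a 2 Mb window the spread was 1.19. Under TMM, 9 members were higher and 11 lower in exons, beside 32.6% and 38.2% of all genes. On the same strand TMM moved the median of all genes by 1.10, and 4 members were higher, beside 42.1% of all genes. These were PSMG4, PSMA1, PSMB5 and PSMA8, counted among the 6 reversed. Under this shift of all genes their ratios became 0.72, 0.61, 0.41 and 0.29, which is relative to the typical gene. Canonical exons left 3 members lower and reversed PSMD9 to 0.084, 10 kb flanks reversed PSMD11 to 0.30, and no filter gave 3 members higher on the same strand. The causes were not tested.

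Between helpers, the 1 member higher became 0 with DESeq2, barcodes collapsed, at least 2 reads, 5 kb flanks added or positions of other genes left out, and ranged from 0 to 1 with each library left out in turn. The count of lower members became 1 with library size as a term or flanks added, and ranged from 0 to 1 with each library left out. Over all genes, 305 calls became 191 with DESeq2 and 536 with library size as a term. Same-numbered libraries of the helpers had correlations of -0.0444 to 0.0385, so the numbers did not pair them, and the fit with the replicate block called 291 genes and 1 member. Few TTAA sites or insertions limit the precision in genes such as PSMB10, PSMB6 and PSMC4.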

Other observations

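The 2 libraries left out of the comparisons held 2380727 and 1854375 insertions, of which 2385 and 2002 fell in member bodies. Their summed relative density was 2.32 and 2.57 in member exons, 1.88 and 2.02 in introns, 4.35 and 4.50 in the upstream 5 kb and 2.67 and 2.99 in the downstream 5 kb. The same-strand share in member bodies was 24.95% and 25.3%. These are values of single libraries with no group.

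Of the members, 7 have the start of another protein-coding gene within 1 kb upstream on the other strand (14.0%, against 8.56% of all genes). They are PSMA1 with PDE3B, PSMA2 with MRPL32, PSMA7 with SS18L1, PSMB1 with TBP, PSMD10 with ATG4A, PSMD13 with SIRT3 and PSME3IP1 with RSPRY1. Their body same-strand shares were 41.4%, 17.1%, 15.9%, 14.8%, 3.96%, 8.95% and 9.55% in that order. PSMA1, which has the longest body of the 7, had the highest share. Its outermost GENCODE start sets both this body and the pairing with PDE3B. That start lies far upstream of the RefSeq promoter window of PSMA1 (chr11:14520337-14520636).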
